A study of Homo sapiens with 6 samples.

Results

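The enzymes described here make the building blocks of DNA and RNA. They are 9 genes, taken by symbol from a count table of 20030 genes, namely RRM1, RRM2, TYMS, TK1, DUT, CAD, DHODH, PPAT and IMPDH2. All 9 were found and all passed the filter on low counts, with between 230 and 9086 reads per library. Their mRNA was measured in HepG2, an established human hepatoma cell line, and KIF11 is the mitotic kinesin that helps to build the bipolar spindle. The sh-ctrl cells carried a control short hairpin RNA (shRNA) and the sh-KIF11 cells an shRNA against KIF11. Both groups carried a pLKO.1 lentiviral construct that is kept as a stable integration, and each group was sequenced as 3 poly(A) libraries on an Illumina platform. The labels name no second shRNA against KIF11, and they do not say whether the 3 libraries of a group came from separate cultures, so the p-values measure only the spread between these libraries, which may be technical.

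Cells obtain nucleotides by building them anew from amino acids, bicarbonate and ribose phosphate, or by salvage of bases and nucleosides. CAD and DHODH act in the new synthesis of pyrimidines, while PPAT starts the purine route and IMPDH2 opens the branch that leads to guanine nucleotides. Ribonucleotide reductase, built from the large subunit RRM1 and a small subunit such as RRM2, turns ribonucleotides into the deoxynucleotides needed for DNA. TYMS makes thymidylate, TK1 salvages thymidine, and DUT removes dUTP so that uracil is kept out of DNA. Several of these genes are best known for high expression in cells that copy their DNA.

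The promoters of these genes are known for short elements read by cell cycle and growth factors, and a few are printed here so that the deoxynucleotide enzymes RRM2, TK1, TYMS and DUT, which all fell, can be set beside CAD and PPAT, which did not pass the test. Windows of 250 bases before to 50 bases after the RefSeq gene start (GRCh38.p14) were at hand for 8 of the 9 members, all but IMPDH2, and were searched on both strands. Shares are given over all 27305 genes with windows and then over the 14994 of them in the count table. CCAAT, the box bound by NF-Y, was found in the windows of RRM1, RRM2, TK1, CAD and DHODH, against 39.7% and 42.1%. An E2F motif (TTTCGCGC, TTTGGCGC, TTTCCCGC or TTTGCCGC) was found for TYMS and DUT, against 3.99% and 5.34%. The letters TTTGAA, the core of the cell cycle homology region (CHR), were found for RRM1 and DUT, against 18.2% and 15.7%. The E-box CACGTG, which MYC can bind, was found for DHODH and PPAT, against 8.77% of genes. No matches overlapped in the members' windows, and a match is a description of the letters only. Not printed are the stretches of RRM1 and DHODH, which were also called lower and carry motifs named above. The stretch printed for PPAT lies inside PAICS, the divergent neighbouring gene, which was itself called lower. Each stretch holds the match closest to the start, and matches farther away are not printed. Relative to the start, RRM2 had further CCAAT matches at -123 and -93, and at -249 in another window. TK1 had a further CCAAT match at -77, and DUT had CHR matches at -214 and -129. The windows of CAD and PPAT held no other match. Below, capitals mark the matched motif, on either strand, and each stretch is written 5′ to 3′ along the gene.
RRM2, chr2:10122651-10122680, plus strand, from 88 to 59 bases before the start: gggaagggccggggcaccaaagCCAATggg
TK1, chr17:78187091-78187120, minus strand, from 68 to 39 bases before the start: atggcggcggggccggctcgtgATTGGcca
TYMS, chr18:657595-657624, plus strand, from 58 to 29 bases before the start: ggcggagcgcgggacggccGCGGGAAAagg
DUT, chr15:48332151-48332180, plus strand, from 46 to 17 bases before the start: gctgGCGGGAAAtttcggtTTTGGCGCgct
CAD, chr2:27217119-27217148, plus strand, from 250 to 221 bases before the start: ATTGGtgttgttgcctataataaacacttt
PPAT, chr4:56435789-56435818, minus strand, from 203 to 174 bases before the start: ctggaaaataacggagatttcCACGTGcag

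The libraries held 18318295 to 19583282 counts in sh-ctrl against 18167773 to 19102804 in sh-KIF11, and KIF11 itself was down-regulated by 0.75 (95% interval -0.87 to -0.63) on the log2 scale in sh-KIF11, from 1976, 2088 and 2039 counts to 1448, 1478 and 1240. Hepatocyte markers were expressed in all libraries and 10 of 11 were lower in sh-KIF11, with a summed level of 34565 to 36270 CPM against 15122 to 16350 CPM. By the same test, described below, 34.7% of all genes tested were lower and 34.4% higher, and the marker counts are read against these shares. Of the fibroblast markers, 0 of 6 were abundant enough to test, with at most 7 counts each and DCN at 0. Of the endothelial markers 2 of 5 were tested, 1 rose, TEK was at 0 and their summed level was 3.16 to 3.56 CPM against 4.69 to 4.98 CPM. The leukocyte markers PTPRC and CD3E had at most 3 counts, and 4 of 6 of that list were tested, with 3 lower and 1 higher. Their summed level of 2482 to 2978 CPM against 509 to 640.2 CPM included LYZ, the lysozyme gene, with up to 48935 counts. Levels are given as CPM, counts scaled to library size with TMM factors, which set the typical gene to about the same level in both groups. Scaling by library totals alone moved the median log2 change of all genes from 0.00 to 0.24.

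Of the 9 enzymes, 7 were down-regulated in sh-KIF11, 0 were up-regulated and 2 did not pass the test, whereas scaling by library totals alone gave 5 lower and 2 higher. The test was edgeR's quasi-likelihood test with an adjusted p under 0.05. The same test called 69.1% of the 12369 genes tested, 34.7% as lower and 34.4% as higher. Scaled by library totals alone it called 6621 genes higher and 2373 lower, against 4254 higher and 4294 lower with TMM. Counts below are therefore read against these shares. The CPM of the groups did not overlap for 6 of the 9 enzymes, all lower in sh-KIF11, against 71.2% of all genes tested. The median log2 change of the 9 was -0.38, against 0.00 over all genes tested, whose quartiles were -0.31 and 0.36. All 9 together took 0.152% of the counts in each sh-ctrl library and 0.126% to 0.127% in sh-KIF11. In such bulk libraries, fewer cells expressing a gene and less RNA per cell cannot be told apart.

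**Figure D1:**
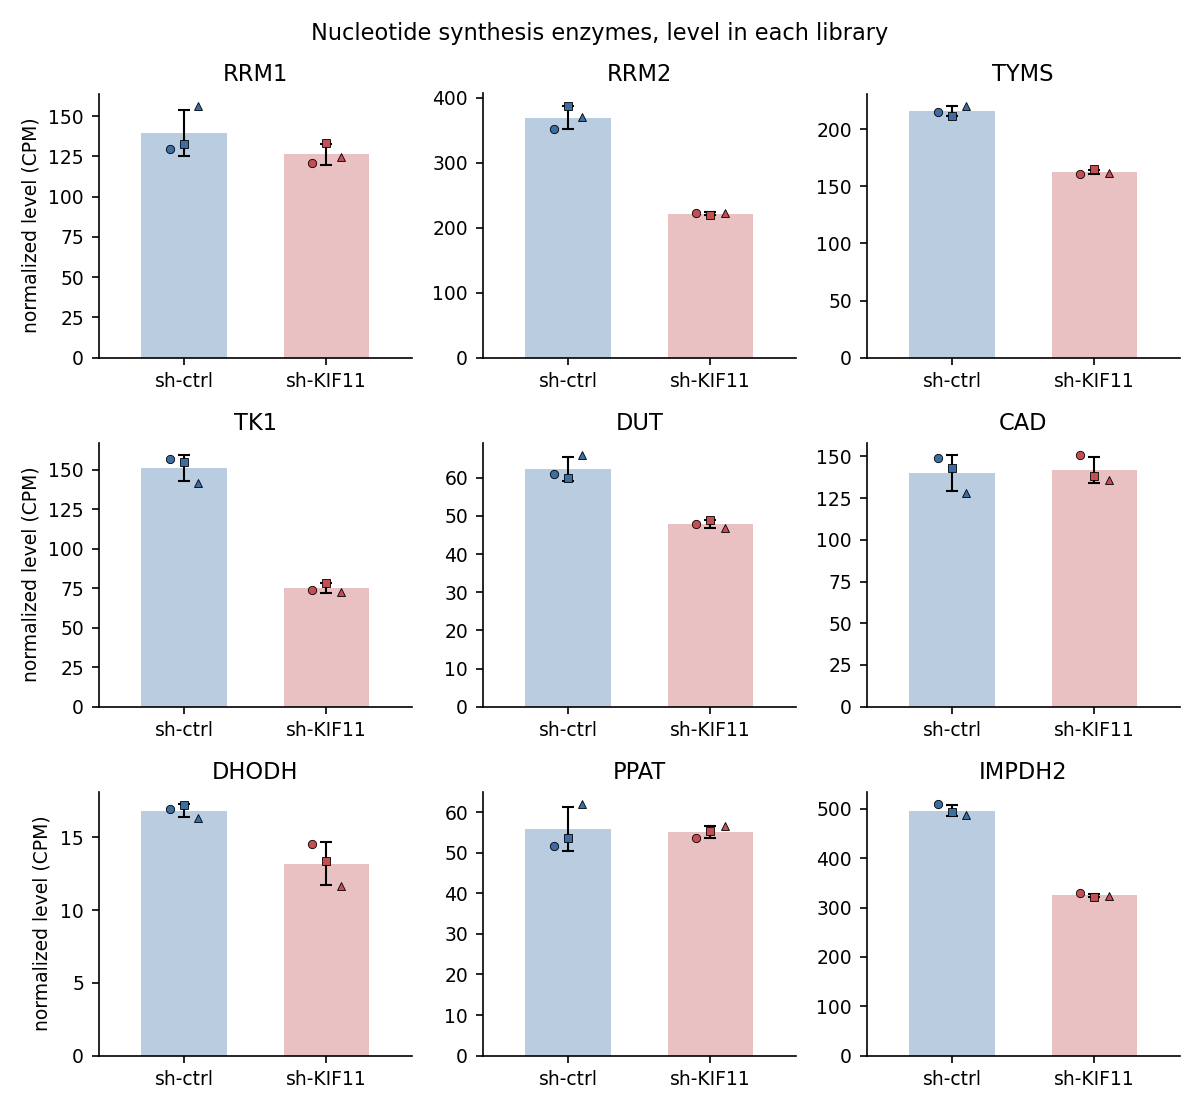
Level of each enzyme in CPM (TMM scaled), with 1 point per library (circle, square and triangle for libraries 1, 2 and 3), bars at the group means and error bars of 1 SD over 3 libraries. RRM2, TYMS, TK1, DUT, DHODH and IMPDH2 show no overlap between the groups, whereas RRM1, CAD and PPAT overlap.

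Thymidine kinase TK1, the salvage enzyme of dividing cells, moved most. Its counts were 2799, 2792 and 2391 in sh-ctrl against 1488, 1624 and 1427 in sh-KIF11. Mean levels were 151 ± 8.25 CPM in sh-ctrl against 74.99 ± 3.13 CPM in sh-KIF11 (SD, n = 3 each), a ratio of 0.496. Every sh-KIF11 library lay far below every sh-ctrl library. The change of -1.01 (95% interval -1.12 to -0.90) on the log2 scale had an edgeR adjusted p of 5.16e-20, and it sat at percentile 3.44 of all changes counted from the most negative. On the fixed list of salvage genes, the mitochondrial thymidine kinase TK2 went the other way, from 227, 203 and 184 counts to 312, 317 and 318, with a log2 change of 0.43 (edgeR adjusted p = 0.000228). Deoxycytidine kinase, DCK, fell by 0.28 on the log2 scale (edgeR adjusted p = 0.00223), but with library totals alone it came to -0.05 (edgeR adjusted p = 0.573). The difference between TK1 and TK2 in response was not tested by itself.

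RRM2, the small subunit of ribonucleotide reductase that accumulates in S phase, was the next lowest. Its counts were 6271, 6981 and 6261 in sh-ctrl against 4478, 4535 and 4394 in sh-KIF11. The level dropped from 369.8 ± 17.6 CPM to 222 ± 2.26 CPM, a ratio of 0.599, with the sh-KIF11 libraries within a few CPM of each other and all below sh-ctrl. This was a log2 change of -0.74 (95% interval -0.84 to -0.64), with an edgeR adjusted p of 5.09e-17.

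RRM1, the large subunit that carries the catalytic site, changed little. Its counts were 2308, 2397 and 2636 in sh-ctrl against 2419, 2760 and 2462 in sh-KIF11. The groups overlapped, at 139.5 ± 14.6 CPM and 126 ± 6.50 CPM. The log2 change of -0.14 (95% interval -0.26 to -0.03) passed the test with an edgeR adjusted p of 0.0268, but this call was lost under several settings. With all libraries kept, upper-quartile factors gave -0.06 (edgeR adjusted p = 0.326) and a filter of at least 10 counts in every library gave -0.12 (edgeR adjusted p = 0.0648). Without sh-ctrl library 3 the value was -0.06 (edgeR adjusted p = 0.29), without sh-KIF11 library 1 it was -0.11 (edgeR adjusted p = 0.125), and without sh-KIF11 library 3 it was -0.14 (edgeR adjusted p = 0.0739). Scaled by library totals alone it turned to 0.09, still below the median of 0.24 for all genes on that scale.

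TYMS, which supplies thymidylate for DNA, had 3838, 3822 and 3714 counts in sh-ctrl against 3228, 3410 and 3185 in sh-KIF11. Its level fell from 216 ± 4.16 CPM to 162 ± 2.07 CPM, a ratio of 0.753, and the spread within each group was small beside this gap. The log2 change was -0.41 (95% interval -0.51 to -0.31) with an edgeR adjusted p of 9.21e-10. DTYMK, the next kinase after TYMS and TK1, went from 119 ± 3.39 CPM to 66.3 ± 3.79 CPM (edgeR adjusted p = 3.07e-17). SHMT1, which charges folate with the carbon that TYMS uses, went from 2018, 1997 and 1793 counts to 1038, 991 and 954 and showed the lowest value of its list, with a log2 change of -1.16 (edgeR adjusted p = 2.55e-21).

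DUT, the dUTPase that also yields the dUMP used by TYMS, had 1088, 1083 and 1113 counts in sh-ctrl against 960, 1015 and 922 in sh-KIF11. The level fell from 62.3 ± 3.18 CPM to 47.9 ± 1.14 CPM without overlap. The log2 change was -0.38 (95% interval -0.51 to -0.25) with an edgeR adjusted p of 1.55e-06. RRM2, TYMS, TK1, DUT and IMPDH2 kept their direction and their call under all 15 alternative scalings, filters, tests and omitted libraries.

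In the new synthesis of pyrimidines the picture differed between the enzymes. CAD, the large protein that carries out the first steps, had 2654, 2586 and 2163 counts in sh-ctrl against 3022, 2859 and 2685 in sh-KIF11. Its levels of 140.1 ± 10.7 CPM and 142 ± 7.85 CPM overlapped, and the log2 change of 0.02 (95% interval -0.10 to 0.13) did not pass the test (edgeR adjusted p = 0.816). In FPKM, a scale that raised the median of all genes, its groups did not overlap. They stood at 14.3, 13.9 and 12.3 in sh-ctrl against 16.3, 15.2 and 14.8 in sh-KIF11. As for the other members, its value depended on scale, and library totals alone gave 0.25 (edgeR adjusted p = 0.00011), close to the median of 0.24 for all genes on that scale. DHODH, the enzyme of the inner mitochondrial membrane, was the least abundant member, with 302, 311 and 276 counts against 292, 277 and 230. Its level dropped from 16.8 ± 0.447 CPM to 13.2 ± 1.45 CPM, the widest relative spread of the sh-KIF11 group among the members. The log2 change was -0.35 (95% interval -0.55 to -0.15, edgeR adjusted p = 0.00166), but with library totals alone it was -0.12 (edgeR adjusted p = 0.266), and in FPKM the groups overlapped.

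UMPS, which completes UMP, and CTPS1, which makes CTP, each had a log2 change of -0.27, with edgeR adjusted p of 0.000200 and 2.25e-05. With library totals alone both came to -0.04 and were no longer called. CTPS2, the other CTP synthase, rose by 0.20 on the log2 scale (edgeR adjusted p = 0.00817). NME1, a nucleoside diphosphate kinase, had the lowest change of the list that passed the test, at -0.50 (edgeR adjusted p = 1.28e-08). NME1 lies beside its close copy NME2, so its reads may be shared between them and its value is uncertain.

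Among the purine enzymes, PPAT and IMPDH2 stood apart from each other. PPAT, the amidotransferase of the committed step, had 922, 969 and 1046 counts in sh-ctrl against 1075, 1148 and 1114 in sh-KIF11. Its levels were 55.8 ± 5.45 CPM and 55.2 ± 1.47 CPM and overlapped. The log2 change of -0.02 (95% interval -0.15 to 0.12) did not pass the test (edgeR adjusted p = 0.852). Its sign was not fixed, since scaling by library totals alone gave 0.22 (edgeR adjusted p = 0.0038), near the median of 0.24 for all genes on that scale.

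IMPDH2, the dehydrogenase of guanine nucleotide synthesis, was the most abundant member. Its counts were 9086, 8902 and 8213 in sh-ctrl against 6592, 6658 and 6387 in sh-KIF11. The level fell from 496 ± 11.7 CPM to 325 ± 3.52 CPM, a ratio of 0.654, and all sh-KIF11 libraries were below all sh-ctrl libraries. The log2 change was -0.61 (95% interval -0.71 to -0.52) with an edgeR adjusted p of 5.32e-15. Its paralog IMPDH1 had overlapping groups in CPM, with 735, 680 and 564 counts against 735, 792 and 765. The log2 change of IMPDH1 was 0.02 (95% interval -0.14 to 0.17, edgeR adjusted p = 0.857), while library totals alone gave 0.25 (edgeR adjusted p = 0.0038). In FPKM the sh-KIF11 libraries were narrowly higher without overlap, with a highest sh-ctrl value of 8.853 and a lowest sh-KIF11 value of 8.858.

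PPAT shares its promoter region with PAICS, a later enzyme of the same pathway, and the annotated genes are divergent with 125 bases between them. PAICS had 8669, 9123 and 9185 counts in sh-ctrl against 6515, 6725 and 6081 in sh-KIF11. It fell from 512 ± 29.6 CPM to 319 ± 9.51 CPM, a log2 change of -0.68 (95% interval -0.78 to -0.58) with an edgeR adjusted p of 9.94e-16. The neighbours thus had intervals of change that did not touch, although the difference between them was not tested by itself.

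**Figure D2:**
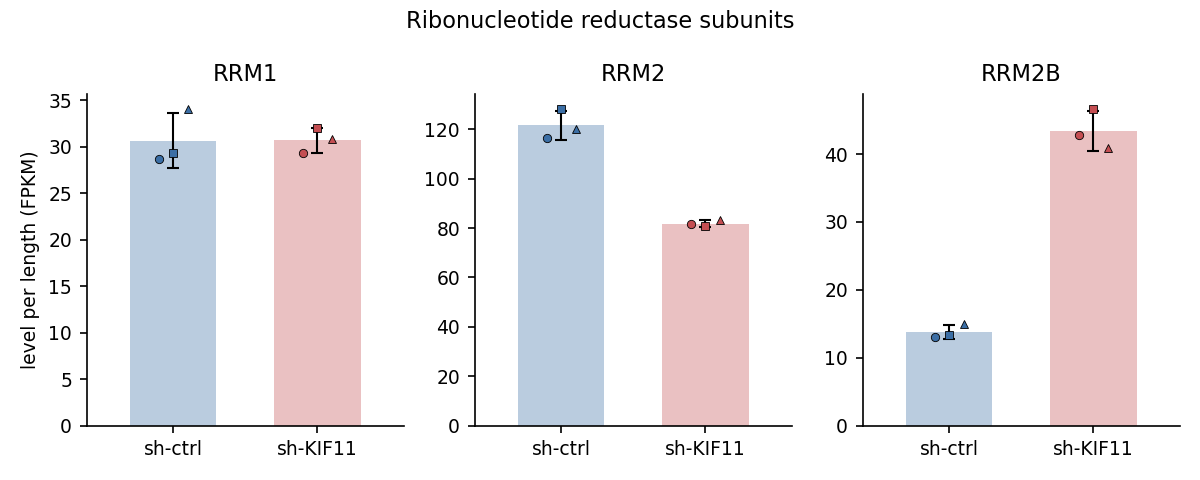
FPKM, a level per transcript length as deposited, of the ribonucleotide reductase subunits in each library, with 1 point per library, bars at the group means and error bars of 1 SD over 3 libraries. RRM2 was lower in sh-KIF11, RRM2B higher, and the RRM1 groups overlapped around a mean of 30.7 in both groups.

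Ribonucleotide reductase can also use RRM2B, a small subunit that serves DNA repair and mitochondrial DNA in resting cells. RRM2B had 934, 953 and 1036 counts in sh-ctrl against 3104, 3447 and 2864 in sh-KIF11. Its level rose by 1.49 on the log2 scale (95% interval 1.36 to 1.61), a ratio of 2.80, with an edgeR adjusted p of 3.70e-24 and under all 15 alternatives. Per length, RRM2B stood at 13.1, 13.4 and 15.0 FPKM in sh-ctrl against 42.7, 46.6 and 40.9 FPKM in sh-KIF11, while RRM2 stood at 116.6, 128 and 119.9 FPKM and at 81.6, 80.6 and 83.2 FPKM. RRM2 remained the more abundant small subunit in every library. The plot of subunit levels shows these opposite moves.

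The ratio of RRM2 to RRM2B in FPKM was 8.90, 9.57 and 7.98 in sh-ctrl against 1.91, 1.73 and 2.03 in sh-KIF11. This was a log2 difference of -2.22, and the exact two-sided permutation test gave p = 0.1, the smallest value that 3 against 3 libraries allow. RRM2B made up 10.2% ± 0.841 of the summed small subunit FPKM in sh-ctrl against 34.6% ± 1.85 in sh-KIF11 (SD, n = 3). The ratio of RRM2 to RRM1 was 4.07, 4.37 and 3.53 in sh-ctrl against 2.78, 2.52 and 2.70 in sh-KIF11, a log2 difference of -0.58 with an exact permutation p of 0.1. Both ratios were free of overlap between the groups. By contrast, RRM2 and RRM2B summed stood to RRM1 as 4.44 ± 0.438 in sh-ctrl against 4.08 ± 0.141 in sh-KIF11, and these values overlapped. Ratios within a library do not depend on how libraries are scaled to each other.

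Levels can be ordered between genes only per length, so the order is given in FPKM. In sh-ctrl, IMPDH2 was highest at 146 ± 4.05 FPKM, followed by RRM2 at 122 ± 5.91 FPKM, TYMS at 75.5 ± 1.56 FPKM and TK1 at 65.1 ± 1.802 FPKM. RRM1 stood at 30.7 ± 2.94 FPKM. PPAT at 16.1 ± 1.47 FPKM, DUT at 14.6 ± 1.23 FPKM and CAD at 13.5 ± 1.02 FPKM came next, and neighbours among these 3 overlapped in their libraries. DHODH was lowest at 2.93 ± 0.223 FPKM. In sh-KIF11 the order kept IMPDH2 first, at 109 ± 1.46 FPKM, and DHODH last, at 2.59 ± 0.387 FPKM. TK1 came down to 36.8 ± 2.38 FPKM, near RRM1 at 30.7 ± 1.34 FPKM but still above it in every library. DUT at 12.6 ± 0.998 FPKM and CAD at 15.4 ± 0.756 FPKM exchanged places, and no neighbours overlapped in sh-KIF11.

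The wider pathway was described with 6 lists of enzymes that are not members, 63 genes in all, of which 60 could be tested. Of these, 35 were lower and 8 higher in sh-KIF11, with a median log2 change of -0.22. Scaled by library totals alone, 16 were lower and 18 higher with a median of 0.01, so that the direction of the pathway as a whole depended on the scale, and on that scale all genes had a median of 0.24. The share called lower can be set against 34.7% of all genes tested.

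Deoxynucleotide supply had the lowest median, with 4 of 5 genes lower, 1 higher (RRM2B) and a median of -0.83, which stayed at -0.60 with library totals alone. In de novo pyrimidine synthesis 3 of 6 were lower and 1 higher, with a median of -0.27 (-0.04 with library totals alone). In de novo purine synthesis 8 of 13 were lower and 1 higher, with a median of -0.18, which turned to 0.05 with library totals alone. PAICS was the lowest of these, and the higher gene was ADSS, which makes the precursor of AMP, with a log2 change of 0.37 (edgeR adjusted p = 1.15e-05). PRPS1, GART, ATIC and GMPS had small negative values between -0.19 and -0.16 that passed the test but turned positive with library totals alone (0.04 to 0.07). With upper-quartile factors the calls of PRPS1 (-0.11, edgeR adjusted p = 0.103), GART (-0.08, edgeR adjusted p = 0.149) and GMPS (-0.08, edgeR adjusted p = 0.175) were lost. On that scale ATIC stayed just under the threshold (-0.11, edgeR adjusted p = 0.0457). The GMPS call was also lost without sh-KIF11 library 2 (-0.11, edgeR adjusted p = 0.103).

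In salvage, 8 of 12 were lower and 2 higher, with a median of -0.28 (-0.05 with library totals alone). APRT, which recovers adenine, fell by 0.66 on the log2 scale (edgeR adjusted p = 5.10e-14), and HPRT1, which recovers hypoxanthine and guanine, had a log2 change of -0.40 (edgeR adjusted p = 4.42e-05), which was -0.17 with library totals alone (edgeR adjusted p = 0.0597). CDA, cytidine deaminase, rose from 37, 38 and 51 counts to 197, 212 and 203, a log2 change of 2.08 (95% interval 1.75 to 2.40, edgeR adjusted p = 6.34e-15). In folate metabolism 5 of 10 were lower and 1 higher, with a median of -0.11, which turned to 0.12 with library totals alone. Without sh-ctrl library 2 the folate list had 3 lower and 2 higher, and without sh-KIF11 library 3 it had 3 lower and 1 higher. SHMT2, the mitochondrial serine hydroxymethyltransferase, had a log2 change of -0.78 (edgeR adjusted p = 9.68e-18), whereas MTHFD2, the next step in mitochondria, had 0.02 (edgeR adjusted p = 0.72) and was called higher with library totals alone (0.25, edgeR adjusted p = 5.61e-05). ALDH1L2, a mitochondrial folate dehydrogenase, was scarce but higher, with 7, 8 and 2 counts against 43, 49 and 61 and a log2 change of 2.95 (edgeR adjusted p = 2.63e-09).

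In breakdown and pool sanitation, 7 of the 14 genes tested were lower and 2 higher, with a median of -0.21 that turned to 0.02 with library totals alone. NT5C2, a nucleotidase of purine monophosphates, rose by 0.58 on the log2 scale (edgeR adjusted p = 9.53e-13). SAMHD1, which cleaves deoxynucleotide triphosphates, had a log2 change of -0.10 (95% interval -0.20 to 0.01) that did not pass the test (edgeR adjusted p = 0.104), although without sh-KIF11 library 1 it did (-0.14, edgeR adjusted p = 0.0414). With library totals alone SAMHD1 was instead called higher (0.14, edgeR adjusted p = 0.0193). UPB1, a late enzyme of pyrimidine breakdown, had only 31, 16 and 10 counts against 9, 11 and 10. Its call (log2 change -1.11, edgeR adjusted p = 0.0147) rested on sh-ctrl library 1, without which it was -0.57 (edgeR adjusted p = 0.294).

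**Figure D3:**
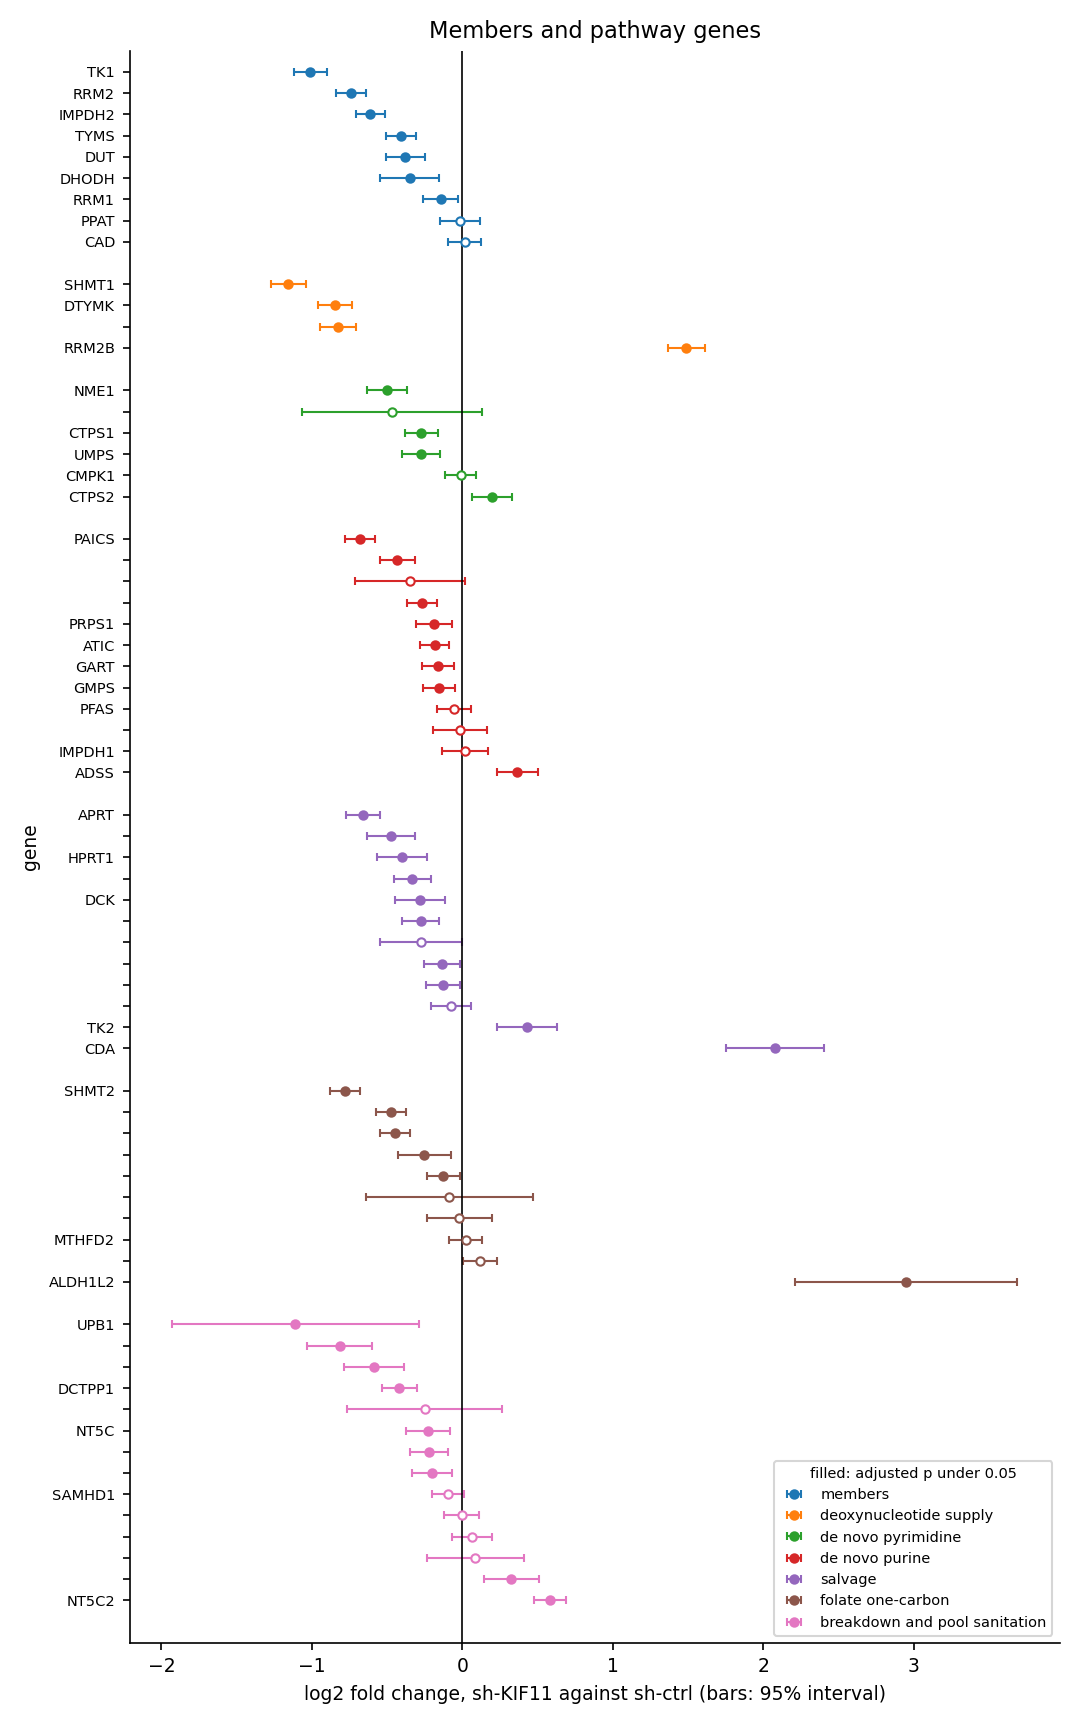
Log2 fold change of sh-KIF11 against sh-ctrl (TMM scaled, edgeR) for the 9 enzymes and 58 further pathway genes grouped by list, with bars for the 95% interval, filled points for an adjusted p under 0.05 and symbols for the genes named in the text. Most called genes lie left of 0, with RRM2B, CDA and ALDH1L2 far to the right, and with library totals alone the medians of de novo purine synthesis, folate metabolism and breakdown turn positive.

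Proliferation markers moved with these enzymes. Of 16 markers of S phase and proliferation, 14 were lower and 1 higher in sh-KIF11, with a median log2 change of -0.43 (-0.20 with library totals alone) and a summed level of 4396 to 4460 CPM against 3240 to 3435 CPM. The replication licensing factor CDT1 was the lowest of them at -0.78, and the cyclin CCNE1 was the one that rose, by 0.33. Named regulators were mixed. E2F1, an activator of S phase genes, fell from 2250, 2186 and 2047 counts to 1678, 1512 and 1355, a log2 change of -0.71 (edgeR adjusted p = 3.68e-14). MYC had -0.17 (edgeR adjusted p = 0.00368), which turned to 0.06 with library totals alone. It was not called with upper-quartile factors (-0.09, edgeR adjusted p = 0.113) or without sh-KIF11 library 2 (-0.13, edgeR adjusted p = 0.0663). The part of these markers and regulators in the levels of the enzymes was not tested.

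**Figure D4:**
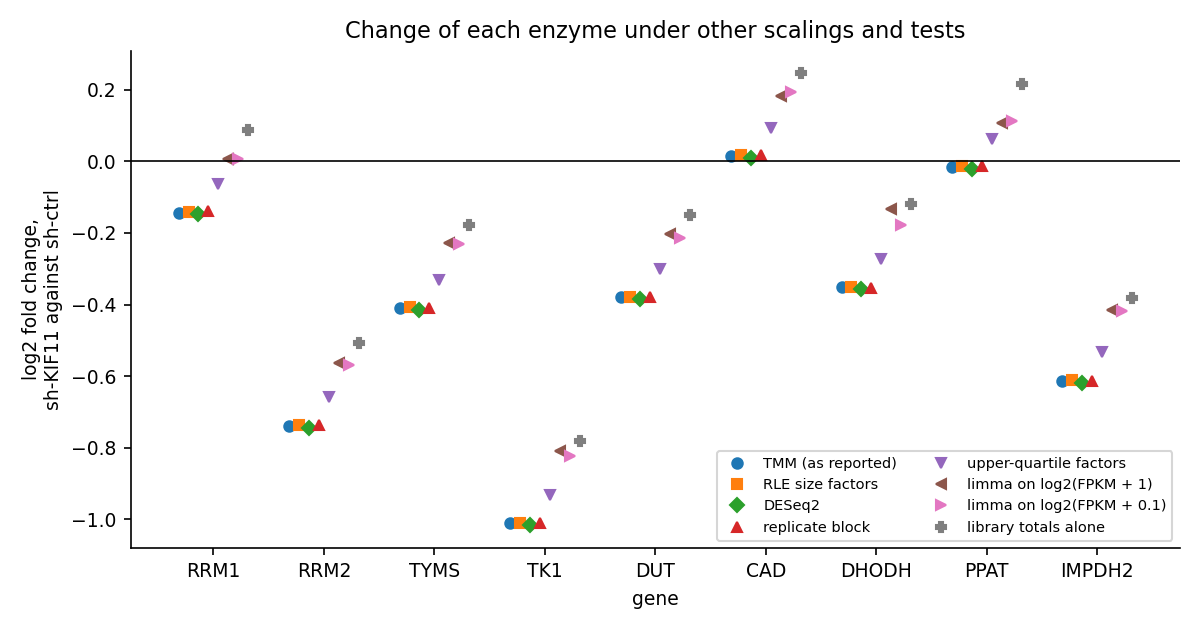
Log2 fold change of each enzyme, sh-KIF11 against sh-ctrl, under the scaling and test reported and under 7 others, with 1 symbol per setting. RRM2, TYMS, TK1, DUT, DHODH and IMPDH2 stay below 0 at every setting, whereas RRM1 and PPAT cross 0 and CAD lies between 0.01 and 0.25.

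The plot of scalings shows how the members shift together when the reference changes. TMM, RLE size factors, DESeq2 and the fit with replicate number as a block gave nearly the same value for each gene. Upper-quartile factors, limma on log2(FPKM + 1) or log2(FPKM + 0.1), and library totals alone lay higher for every member, as they did for the median of all genes (0.08, 0.12, 0.17 and 0.24). TK1 moved from -1.01 to -0.78 with library totals alone and IMPDH2 from -0.61 to -0.38, while the order of the largest changes, TK1, RRM2 and IMPDH2, was the same on each scale.

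All 9 genes were placed on GRCh38 with the GENCODE 29 annotation. The RefSeq starts used for the promoter windows above are not always the outer ends of these spans. The stretches printed for RRM2, TK1 and DUT therefore lie inside the spans given here, and that of TYMS partly so. That of PPAT lies beyond the 125 bases between PPAT and PAICS, and so inside the PAICS span. RRM1 lies on chr11:4094707-4138876 and RRM2 on chr2:10120698-10131419, both on the plus strand. TYMS lies on chr18:657604-673578, DUT on chr15:48331011-48343373, CAD on chr2:27217390-27243943 and DHODH on chr16:72008588-72027664, all on the plus strand. TK1 on chr17:78174075-78187233, PPAT on chr4:56393362-56435615 and IMPDH2 on chr3:49024325-49029408 are on the minus strand. TYMS overlaps other transcribed genes most. On the opposite strand, 967 of its 2470 exonic bases are shared with ENOSF1 and 183 with the lncRNA TYMSOS. ENOSF1 had 409, 427 and 399 counts in sh-ctrl against 626, 631 and 600 in sh-KIF11, and TYMSOS had 645, 638 and 690 against 495, 520 and 522. The library kit marks strand, but the strand setting used in counting is not given in the sources used here, so reads of TYMS and of these partners may not be fully told apart. RRM2 shares 1077 exonic bases with an annotated gene on the same strand, and the annotation holds 3 pseudogenes of RRM2, 2 of TYMS, 8 of DUT and 2 of PPAT, none of them listed in the count table, so these 4 genes carry some uncertainty from reads that match more than a single place.

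For 8 of the enzymes, the pathway gene with the most similar pattern was found as the smallest root mean square difference of log2 CPM, centred on each gene's mean, over the 6 libraries among 60 genes. It was SHMT2 for RRM2 (0.0497), SHMT1 for TK1 (0.0952) and DCTPP1 for DUT (0.0344). For IMPDH2 it was APRT (0.0302), for PPAT CMPK1 (0.0337), for CAD PFAS (0.0413), for RRM1 PRPS1 (0.0575) and for DHODH NT5C (0.0923). Among all other tested genes, those nearest to TK1 were GLYCTK (0.0187), CDKN2C (0.0319) and CDC20 (0.0371), with log2 changes of -0.99, -0.98 and -0.96. With 2 groups of libraries, this measure follows mainly the size of the change between them.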

How the data were processed

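Poly(A) RNA of 3 sh-ctrl and 3 sh-KIF11 libraries of HepG2 cells was sequenced with paired-end reads, and groups came from the sample titles. Columns headed shRNA were mapped to sh-KIF11, the single targeting shRNA in the labels, which left 0 sample columns unmapped. The authors deposited raw counts per gene and, in a second table, FPKM, a level per length and library size. The FPKM are not simply these counts rescaled. NME2, for example, had 31, 40 and 34 counts in sh-ctrl but 67.2, 68.4 and 59.7 FPKM. Differences between CPM and FPKM may therefore reflect more than scaling, which was not tested. The submitters' processing notes name Trimmomatic, HISAT2 2.1.0, HTSeq 0.9.1, Cufflinks 2.2.1 and GRCh38. The strand setting of the counting is not given in the sources used here.

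Counts were fitted in R 4.3.3 with edgeR 4.0.16 (filterByExpr, TMM, quasi-likelihood test with the group as the only term), which kept 12369 genes and left out 7661. P-values were two-sided and adjusted by the Benjamini-Hochberg method over all genes kept, with a threshold of 0.05. DESeq2 1.42.0, and limma 3.58.1 on log2(FPKM + 1) and log2(FPKM + 0.1), where folds of scarce genes are understated, served as alternatives, with other scalings, filters and each library left out. The log2 CPM behind the similarity of patterns used a prior count of 2. On simulated counts for 12369 genes, edgeR recovered 87% of 200 genes planted with a log2 change of 0.5 and made 9 other calls. The planted genes were few, as many up as down, and all genes had the same dispersion. In the data 69.1% of genes were called and the results depended on scaling. The simulation therefore does not measure how many calls in these data are false.

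The members, gene lists and tests were chosen with earlier results of these data known. Named were the members, KIF11, listed pathway partners, the highest and lowest called gene of each list, E2F1, MYC and the nearest genes in pattern; values of a few such genes are not given here. CDT1, CCNE1, LYZ and the regulators other than E2F1 and MYC were named after their values were seen. Promoter windows were taken from RefSeq.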

Additional observations from a re-analysis of the deposited data

How the results depend on the processing

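Each comparison was repeated under 15 alternatives. KIF11 kept its direction and call, and both ratios kept their direction under the alternatives that apply to them. Over 38 genes, 495 values kept direction and call, 42 lost the call, 8 gained it and 23 changed sign. Scaled by library totals alone, 2 enzymes (CAD and PPAT) were called higher, 18 pathway genes were higher and 16 lower, and the sign changed for RRM1 (0.088), PPAT (0.22), GART (0.068), ATIC (0.046), GMPS (0.072), PRPS1 (0.043), SAMHD1 (0.14) and MYC (0.061). Limma on log2(FPKM + 1) and log2(FPKM + 0.1) called 1 enzyme higher each (CAD at 0.18 and 0.19) and 17 and 18 pathway genes lower, with changed signs for RRM1 (0.0060 and 0.0062), PPAT (0.11 and 0.11) and SAMHD1 (0.053 and 0.055). PPAT was also 0.064 with upper-quartile factors and 0.011 with at least 10 counts in every library. These scales raise the median of all genes. The cause of other changes was not tested. With single libraries left out, 6 to 7 enzymes were called lower and 39 to 45 pathway genes were called. The ranges were -0.047 to 0.065 for CAD, -0.062 to 0.064 for PPAT, -0.060 to 0.095 for IMPDH1 and -0.0045 to 0.073 for MTHFD2. Replicate numbers did not pair the libraries (correlation of deviations -0.02 to 0.03 between same-numbered libraries), and with replicate number as a block 7 enzymes and 44 pathway genes were called and the paired exact permutation p of both ratios was 0.25. TK2, DHODH, UPB1, CDA and ALDH1L2 rest on few reads, so their values are less precise.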

Other observations

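The deposited annotation assigns 174 genes to purine metabolism and 101 to pyrimidine metabolism in KEGG, a pathway database, and these terms also hold RNA polymerase subunits. Of the purine term 133 genes were tested, with 69 lower and 30 higher in sh-KIF11 and a median log2 change of -0.19. Of the pyrimidine term 92 were tested, with 56 lower and 16 higher and a median of -0.25. With library totals alone the purine term had 53 higher and 33 lower with a median of 0.04, and the pyrimidine term 27 higher and 29 lower with a median of -0.02. Of the 9 enzymes, 4 belong to the purine term and 7 to the pyrimidine term.

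Of 16 transcription factors known to act on such genes, 7 were lower and 5 higher, with a median of -0.01, against 3 lower and 9 higher with library totals alone. Over all genes tested, 34.7% were called lower and 34.4% higher, with a median of 0.00. Without sh-KIF11 library 3 the factors had 7 lower and 3 higher. The activators MYBL2 (-0.89, edgeR adjusted p = 2.32e-19), E2F1 and FOXM1 (-0.61, edgeR adjusted p = 1.34e-13) were lower. RB1, the repressor of E2F activity, was higher (0.38, edgeR adjusted p = 2.08e-06), as was E2F7, a repressive member of the E2F family (0.53, edgeR adjusted p = 4.97e-07). Others went against this division, since E2F8, also repressive, was lower (-0.35, edgeR adjusted p = 0.000375) and E2F3, an activator, was higher (0.18, edgeR adjusted p = 0.0293). MYBL2, FOXM1, RB1, E2F7, E2F8 and E2F3 were named after their values were seen, and their part in the levels of the enzymes was not tested.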
